A study of Mus musculus with 15 samples.

Results

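Chemokines are small secreted or membrane-tethered proteins that guide cells bearing matching G protein-coupled receptors. In the brain the system has a constitutive side, in which neurons make Cx3cl1 (fractalkine) and microglia carry its receptor Cx3cr1, and in which Cxcl12 holds and steers cells that carry Cxcr4. It also has an inducible side, in which microglia, astrocytes and incoming leukocytes make CC chemokines, Cxcl10 and Cxcl16 and so call in monocytes and T cells.

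The transcripts of 10 chemokine genes, chosen by name from the 43629 genes counted, were followed in whole brains. These came from 15 wildtype male C57BL/6J mice, with 1 library per mouse. The genes were chosen with earlier results of these data known. The 10 were the membrane-tethered Cx3cl1 and Cxcl16, the homeostatic Cxcl12, the interferon-induced Cxcl10, the monocyte attractant Ccl2, and Ccl3, Ccl4, Ccl5, Ccl6 and Ccl9. Mice were 3 or 24 months old by their labels and had been fed ad libitum (AL) or on the intermittent fasting schedule labelled IF, which the study's methods describe as every-other-day feeding (EOD) begun at 2 months of age. There were 4 young AL (3M_AL), 3 young EOD (3M_IF), 4 old AL (24M_AL) and 4 old EOD (24M_IF) mice. Young EOD mice had thus been on the schedule only briefly and old EOD mice for most of their lives, so age and the length of EOD feeding cannot be told apart within the EOD arm.

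Library totals lay between 5198748 and 13610729 counts. The third young AL mouse stood apart: its median correlation with the other libraries was 0.957, against 0.980 to 0.987 for the rest, and it had the highest total and the fewest detected genes (17280). Results that rest on it are given with and without it. The summed level of 8 neuronal markers was 8510 to 10800 CPM (counts scaled to the library size) across the mice and astrocyte and oligodendrocyte markers were detected in all. In the old AL group, the fourth mouse held pituitary hormone transcripts (summed level 1040 CPM against at most 18.2 in any other mouse) and the third held neutrophil transcripts (22.7 CPM against at most 3.85).

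The 6 CC chemokine genes lie on mouse chromosome 11 in the order Ccl2, Ccl5, Ccl9, Ccl6, Ccl3 and Ccl4, and the last 5 of these fall within 139 kb (GRCm38). Ccl9 and Ccl6 are separated by 9.24 kb, Ccl6 and Ccl3 by 54.8 kb, and Ccl3 and Ccl4 by 13.2 kb. Cxcl16 lies on the same chromosome (70453983 to 70459984), Cx3cl1 on chromosome 8 (94772009 to 94782423), Cxcl12 on chromosome 6 (117168535 to 117181367) and Cxcl10 on chromosome 5 (92346638 to 92348889). RefSeq promoter windows on GRCm38.p6 were held for 6 of the 10 genes. The 250 bases upstream of the annotated start are shown for Ccl3 and Ccl6, both of which were higher in old brains, and for Ccl9, the neighbour of Ccl6 for which no age difference passed the test. All are on the minus strand and are written 5′ to 3′ in the direction of transcription, with capitals marking a match to a searched motif.
Ccl3, chr11:83649379-83649628: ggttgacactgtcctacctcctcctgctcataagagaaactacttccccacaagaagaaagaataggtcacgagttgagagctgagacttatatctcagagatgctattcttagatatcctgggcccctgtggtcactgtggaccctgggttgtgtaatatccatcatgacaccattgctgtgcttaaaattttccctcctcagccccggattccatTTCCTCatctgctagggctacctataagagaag
Ccl6, chr11:83593088-83593337: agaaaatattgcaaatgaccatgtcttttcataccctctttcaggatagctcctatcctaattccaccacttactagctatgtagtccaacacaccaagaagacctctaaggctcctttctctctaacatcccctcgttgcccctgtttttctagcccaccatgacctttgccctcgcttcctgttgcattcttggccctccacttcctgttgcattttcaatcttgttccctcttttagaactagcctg
Ccl9, chr11:83578637-83578886: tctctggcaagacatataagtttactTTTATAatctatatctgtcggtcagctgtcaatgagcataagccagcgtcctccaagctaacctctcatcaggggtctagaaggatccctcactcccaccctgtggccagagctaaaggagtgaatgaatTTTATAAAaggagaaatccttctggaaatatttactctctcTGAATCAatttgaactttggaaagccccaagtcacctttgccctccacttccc

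The motifs searched, on both strands, were GGANTTTCC (part of an NF-kappaB site), TGANTCA (AP-1), TTGCNNAA (C/EBP), GAGGAA (an ETS core as used by PU.1) and TATAAA. Among 32851 windows of the same length these letters occurred in 1.07%, 6.75%, 9.56%, 23.3% and 12.4%, respectively. Ccl3 held 1 ETS match, Ccl9 held 1 AP-1 match and 3 TATAAA matches of which 2 overlap, and Ccl6 held none of the 5. A match here is a run of letters and not a measured binding site.

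The 10 genes differed widely in level. Expressed as CPM per kb of exon and averaged over the 15 mice, Cx3cl1 stood at 150.1 (range 130.2 to 177.2) and made up 92.3% of the summed level of the 10. Cxcl12 followed at 8.14 (6.32 to 10.1), or 5.01%. No mouse of Cxcl12 reached the Cx3cl1 range, and no mouse of the next gene, Ccl6 at 1.42 (0.229 to 2.73), reached that of Cxcl12. Below Ccl6 came Cxcl16 at 0.751, Ccl9 at 0.583, Ccl3 at 0.574, Cxcl10 at 0.411, Ccl4 at 0.344, Ccl5 at 0.191 and Ccl2 at 0.141, and each of these overlapped its neighbours in the order. The quantity measured is transcript in bulk tissue, where fewer cells of a type and less RNA per cell cannot be told apart.

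**Figure D1:**
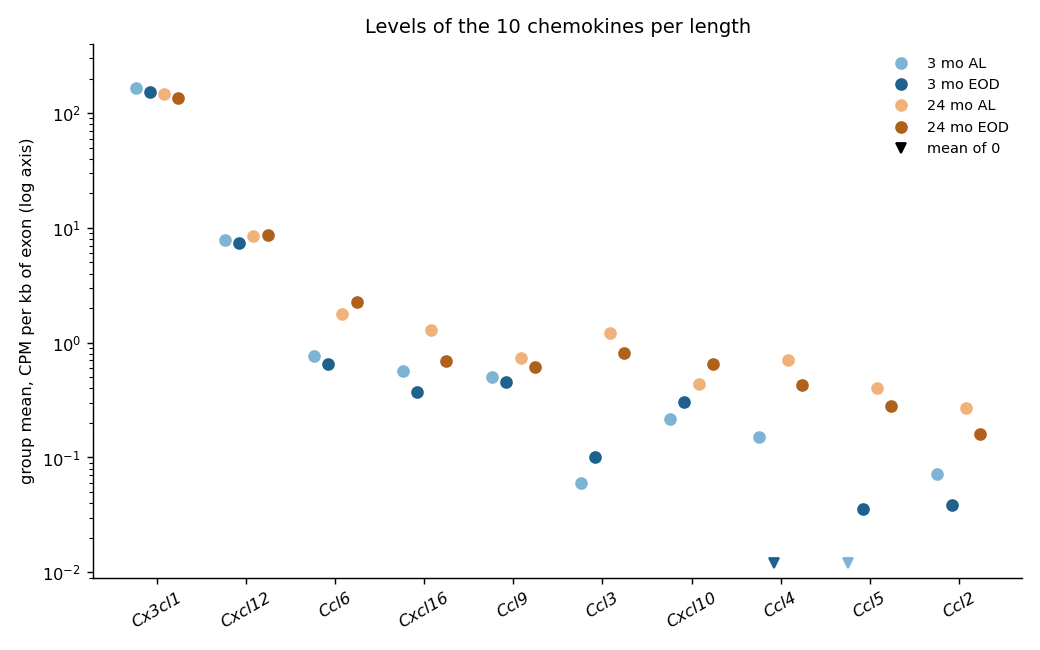
Group mean level of each chemokine in CPM per kb of exon (log axis), genes ordered by their mean over 15 mice, 1 point per age and diet group, with a triangle where the group mean was 0. Cx3cl1 stands at about 150.1 and Cxcl12 at 8.14, while the other 8 lie at 1.42 or below on average.

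A gene was judged too low to test when it did not pass edgeR's expression filter, which here asked for 1.011 CPM in at least 3 mice. Ccl2, Ccl4, Ccl5 and Cxcl10 did not pass, with 21, 33, 23 and 89 counts in all 15 libraries together. Ccl3, Ccl6, Ccl9, Cxcl12, Cxcl16 and Cx3cl1 passed. Ccl3 did so through 3 old mice and 0 young mice, on 62 counts in total, so a difference with age was built into its entry and its test is read with that limit. All fold changes below are log2 values from a single edgeR fit of the 4 groups over 15864 genes, with Benjamini-Hochberg adjustment and a call at a false discovery rate (FDR) under 0.1.

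The first question was whether these transcripts differ between young and old brains, and whether they do so under each diet. Averaged over both diets, Ccl6 and Cxcl16 rose with age and 0 fell, which is 2 of the 5 tested chemokines that young mice also carried at the filter level, where 2.3% of all tested genes were called in either direction. Among these 5, EOD mice gave 1 call, Ccl6 (0.29% of all genes), and AL mice gave 0 (1.09% of all genes). Ccl3 was called averaged over diets and in AL mice as well, but is left out of these counts because of how it entered the test. The chemokines were chosen with earlier results of these data known, so the shares of all genes give a scale and not a test of enrichment. The age effects under the AL and EOD diets were not shown to differ: 0 of 6 chemokines and 0% of all genes passed the test of the age by diet interaction, where unadjusted edgeR p-values under 0.05 numbered 0 among the chemokines and 362 among all genes, and DESeq2 called 0 genes.

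Counted by overlap of normalised levels, Ccl6 and Cxcl16 were each higher in every old AL than in every young AL mouse, and 4.56% of all tested genes did not overlap in that comparison. Both also did not overlap between old and young EOD mice, where 9.04% of tested genes did not. Across all 8 old and all 7 young mice Ccl6 did not overlap, and 0.901% of tested genes did not. Ccl3 separated the ages in all 3 comparisons too, which is given as a description only.

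**Figure D2:**
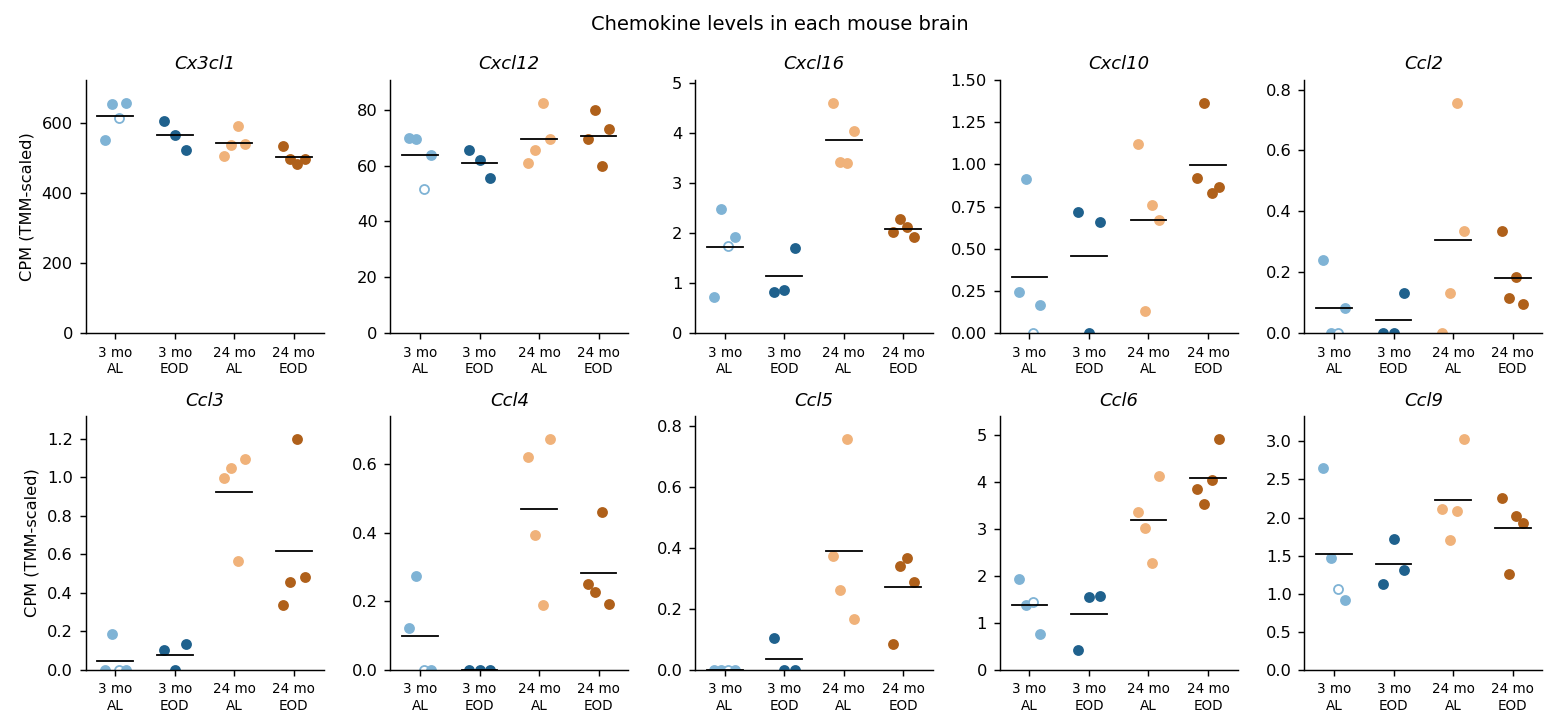
Normalised level (TMM-scaled CPM, each axis from 0) of each chemokine in each of 15 mice, by age (3 or 24 months) and diet (AL or EOD), with 1 point per mouse, a line at the group mean and an open point for the third young AL mouse. Ccl3 and Ccl6 separate all 8 old from all 7 young mice, Cxcl16 is highest in the 4 old AL mice, and Cx3cl1 and Cxcl12 vary little.

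Ccl6 encodes a rodent CC chemokine made by macrophages and microglia that acts through Ccr1. Its level was 1.93, 1.37, 1.44 and 0.753 CPM in the young AL mice and 0.411, 1.55 and 1.58 in the young EOD mice. It was 3.36, 3.02, 2.27 and 4.12 CPM in the old AL mice and 3.85, 3.53, 4.05 and 4.91 in the old EOD mice. The lowest old mouse, the third old AL mouse, lay above the highest young mouse. Averaged over diets the level rose 2.95-fold (95% confidence interval 2.03 to 4.31; log2 1.56, standard error 0.26, FDR 0.0015), and the FDR was 0.00091 without the third young AL mouse. In EOD mice the log2 difference was 1.86 (SE 0.40, FDR 0.054). In AL mice it was 1.27 (SE 0.34) with an FDR of 0.108, which missed the threshold. This AL difference was called in 4 of 22 alternatives, and the highest FDR over the 22 was 0.293. The 4 were every detected gene in the fit (FDR 0.032), DESeq2 (0.045) and omission of the first young AL (0.079) or the first young EOD mouse (0.055). The EOD call was lost with replicate number as a block (FDR 0.195), with sequencing lane as a covariate (0.229), at an FDR threshold of 0.05 and when any young or old EOD mouse was left out, with the log2 difference between 1.38 and 2.20.

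Ccl3 encodes a macrophage inflammatory protein that signals through Ccr1 and other receptors. Its counts were 0, 2, 0 and 0 in the young AL mice, 1, 0 and 1 in the young EOD mice, 8, 8, 3 and 13 in the old AL mice and 4, 4, 13 and 5 in the old EOD mice. Every old brain thus held more counts than any young brain, and 4 of 7 young brains held none. The summed counts, 58 in old and 4 in young mice, gave a depth-scaled ratio of 13.1 (exact 95% interval 4.85 to 49.7, counting error only), or 10.5 without the third young AL mouse. The exact two-sided permutation test of the levels over mice gave p = 0.000311, where the smallest p this design can give is 0.000155. In the fit the log2 difference was 3.36 averaged over diets (SE 0.61, FDR 0.0037), 4.05 in AL mice (SE 0.81, FDR 0.013) and 2.68 in EOD mice (SE 0.93, FDR 0.626). Ccl3 entered the fit through 3 old and 0 young mice, and the permutation test was added after the counts had been seen. The p-value and the FDRs of Ccl3 with age are therefore given as a description only. Ccl3 left the tested set in 7 of the 15 fits that left out 1 mouse, the third young AL mouse among them, and so has no FDR there.

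Cxcl16 encodes a transmembrane chemokine that also takes up oxidised lipoprotein and binds Cxcr6 on T cells. Its level was 0.723, 2.47, 1.74 and 1.92 CPM in young AL mice, 0.821, 0.860 and 1.71 in young EOD mice, 4.60, 3.41, 3.41 and 4.04 in old AL mice, and 2.01, 2.28, 2.12 and 1.92 in old EOD mice. Old AL mice exceeded every other mouse, whereas old EOD mice overlapped the young AL mice. The increase averaged over diets was 2.02-fold (1.41 to 2.89; log2 1.01, SE 0.25, FDR 0.043), and the FDR was 0.031 without the third young AL mouse. The call was lost with lane as a covariate (FDR 0.108) and without the first or the second young EOD mouse, with log2 differences of 0.998, 0.90 and 0.95. Within diets the log2 difference was 1.15 in AL mice (SE 0.31, FDR 0.110) and 0.87 in EOD mice (SE 0.39, FDR 0.836). The difference in AL mice was called in 3 of 22 alternatives, and the highest FDR over the 22 was 0.335. The 3 were DESeq2 (FDR 0.061), every detected gene in the fit (0.073) and omission of the second young AL mouse (0.080).

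Ccl6, Ccl3 and Cxcl16 were also compared inside each sequencing lane named in the file headers, as differences of mean log2 CPM with a prior count of 2. In AL mice, Ccl6 was higher in old mice by 0.95, 0.78 and 2.17 in lanes 1, 2 and 3, Ccl3 by 2.07, 2.23 and 2.63, and Cxcl16 by 1.60, 0.89 and 0.99. In EOD mice the differences were 2.71 and 1.08 for Ccl6, 0.80 and 1.31 for Ccl3 and 1.11 and 0.79 for Cxcl16 in lanes 1 and 2, and lane 3 held no young EOD mouse. All were positive, each from 1 or 2 mice per group and lane. Because none of these genes overlapped between ages under either diet, the signs could not have differed. The lane comparison therefore adds only their sizes.

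Ccl9, like Ccl6 a rodent ligand of Ccr1, lies next to it but overlapped between ages. Its level was 2.65, 1.47, 1.06 and 0.920 CPM in young AL mice, 1.13, 1.72 and 1.31 in young EOD mice, 2.11, 1.71, 2.08 and 3.03 in old AL mice and 2.26, 1.25, 2.03 and 1.92 in old EOD mice. The first young AL mouse was higher than all but the fourth old AL mouse. The averaged log2 difference was 0.54 (95% confidence interval -0.03 to 1.11, FDR 0.451), so a difference of up to 2.15-fold lay inside the interval.

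The constitutive chemokines differed little between ages. Cx3cl1 stood at 550, 653, 613 and 657 CPM in young AL mice, 604, 565 and 523 in young EOD mice, 504, 538, 592 and 540 in old AL mice and 535, 496, 483 and 496 in old EOD mice. The ages overlapped under each diet, and the 3 lowest values were those of old EOD mice. Its averaged log2 difference was -0.18 (SE 0.052, 95% confidence interval -0.28 to -0.07), an FDR of 0.106 that just missed the threshold. It passed in 5 of 22 alternatives, and the highest FDR over the 22 was 0.307. The 5 were DESeq2 (FDR 0.048), every detected gene in the fit (0.082) and omission of the first young AL, the third young EOD or the third old AL mouse.

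Cxcl12 stood at 69.8, 69.3, 51.7 and 63.7 CPM in young AL mice, 65.5, 61.9 and 55.6 in young EOD mice, 60.9, 65.6, 82.5 and 69.4 in old AL mice and 69.5, 79.9, 59.9 and 73.2 in old EOD mice. All groups overlapped, with the third young AL mouse lowest and the third old AL mouse highest. The averaged log2 difference was 0.17 (95% confidence interval -0.002 to 0.34, FDR 0.432), which leaves room for an increase of at most 1.26-fold inside that interval.

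**Figure D3:**
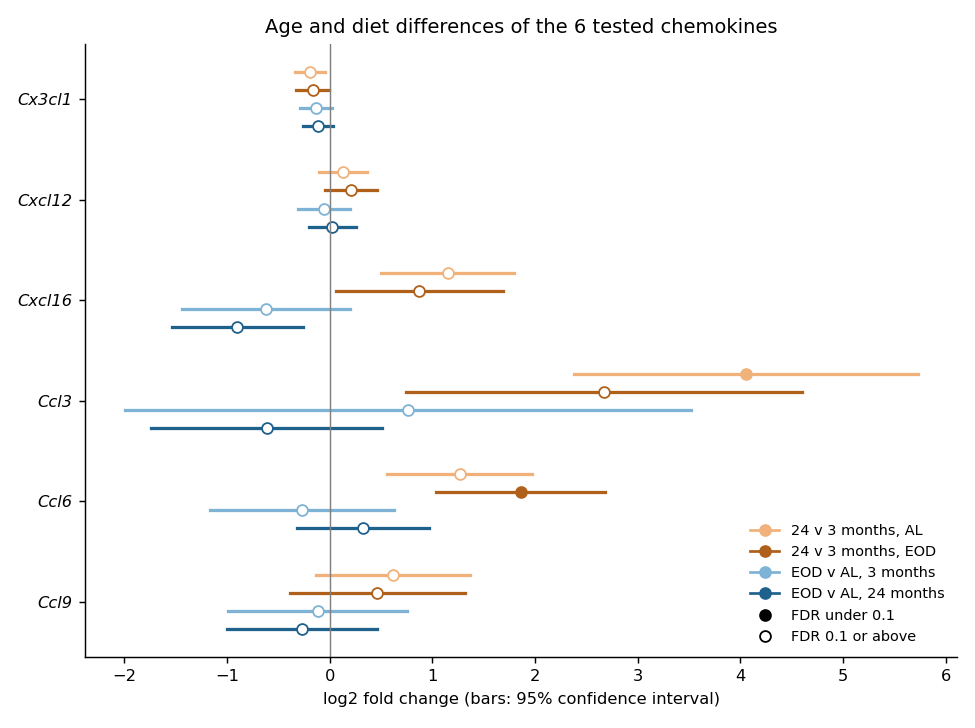
Log2 fold change with 95% confidence interval for the 6 tested chemokines in 4 comparisons, old against young in AL or EOD mice and EOD against AL in young or old mice, with filled points where the FDR is under 0.1. Ccl3 in AL mice (4.05) and Ccl6 in EOD mice (1.86) are the filled points, and every diet interval for Cx3cl1 and Cxcl12 lies within 0.31 of 0. Ccl3 passed the expression filter through old mice only.

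The 4 genes too low for the fit were compared by their counts and by exact two-sided permutation tests of the levels, 20 tests in all including those of Ccl3, which were added after the counts had been seen. These p-values are not adjusted. In 4 against 4 mice the smallest p is 0.0286, and so it is in 4 against 3.

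Ccl5 draws T cells and monocytes, in part through Ccr1. It had 0 counts in all 4 young AL mice and 1, 0 and 0 in young EOD mice, against 3, 2, 4 and 2 in old AL and 1, 3, 4 and 3 in old EOD mice. All old brains and 1 of the 7 young brains held at least 1 count. The ratio of 22 to 1 summed counts, scaled to depth, was 19.9 (exact 95% interval 3.21 to 820, exact permutation p = 0.000777), and 16.0 without the third young AL mouse (p = 0.00167 by the same exact test). Set against a floor of 3 counts over the young AL group, the 11 counts of the old AL mice were at least 4.96-fold higher, or 3.48-fold without the third young AL mouse. The exact 95% interval of that ratio, which also covers the counting error of the old mice, began at 3.39, or at 2.38 without that mouse.

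Ccl4 encodes a macrophage inflammatory protein related to that of Ccl3. Its counts were 1, 3, 0 and 0 in young AL mice, 0 in all 3 young EOD mice, 5, 3, 1 and 8 in old AL mice and 3, 2, 5 and 2 in old EOD mice. The second young AL mouse lay inside the old AL range by level, whereas old and young EOD mice did not overlap. The ratio of old to young was 6.55 (2.3 to 25.6, exact permutation p = 0.00233), and 5.26 without the third young AL mouse (exact p = 0.00566).

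Cxcl10 is induced by interferons and attracts T cells through Cxcr3. Its counts were 2, 10, 0 and 2 in young AL mice, 7, 0 and 5 in young EOD mice, 9, 1, 4 and 8 in old AL mice and 11, 12, 9 and 9 in old EOD mice. The AL groups overlapped widely, and the old EOD mice were all above the young EOD mice by level. The ratio was 2.19 (1.37 to 3.6, exact permutation p = 0.0342), but without the third young AL mouse it was 1.76 with an exact p of 0.0723.

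Ccl2, the main ligand of Ccr2 on monocytes, had 2, 0, 0 and 1 counts in young AL mice, 0, 0 and 1 in young EOD mice, 0, 1, 4 and 4 in old AL mice and 4, 1, 2 and 1 in old EOD mice. Old and young overlapped under both diets. The ratio was 3.84 (1.25 to 15.7) and the exact permutation p over mice was 0.0615. An age difference of Ccl2 larger than the spread between mice was thus not detected. When the filter was dropped, the edgeR fit, whose FDRs are then read with caution, also called Ccl5 (FDR 0.025) and Ccl4 (FDR 0.052) with age averaged over diets. DESeq2 called Ccl4 (FDR 0.086) and gave Ccl5 no adjusted p.

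**Figure D4:**
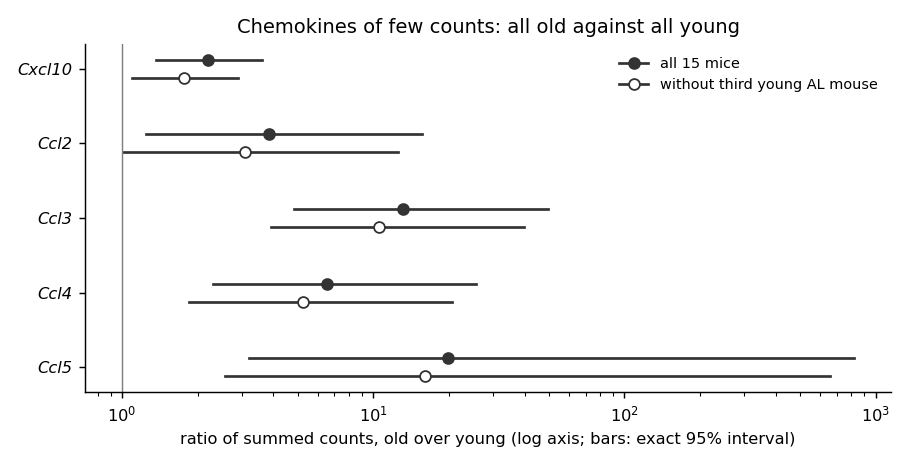
Ratio of summed counts in 8 old to 7 young mice, scaled to library depth (log axis), with the exact 95% interval, for the 4 chemokines below the filter and Ccl3, with open points leaving out the third young AL mouse. Ratios run from 2.19 for Cxcl10 to 19.9 for Ccl5, and the intervals cover counting error only.

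The second question was whether EOD feeding changed these transcripts. In young mice, among old mice and in the average over ages, diet called 0 of the 6 tested chemokines and 0% of all genes by edgeR, whereas DESeq2 called 1, 0 and 0 genes. Unadjusted edgeR p-values under 0.05 numbered 657, 409 and 715 over all genes and 0, 1 and 2 over the chemokines. The 1 in old mice was Cxcl16, and Cx3cl1 joined it in the average.

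Cxcl16 was lower in all 4 old EOD mice (1.92 to 2.28 CPM) than in all 4 old AL mice (3.41 to 4.60), and it was the only tested chemokine without overlap there, where 2.59% of all tested genes did not overlap. The log2 difference was -0.90 (SE 0.31, 95% confidence interval -1.54 to -0.26, unadjusted p = 0.0082 by edgeR), with an FDR of 0.9999. It was negative within each lane, at -1.12, -0.54 and -0.93, a sign that the lack of overlap already fixed. In young mice the difference was -0.62 (SE 0.39) with overlapping groups, and over the 6 chemokines 0 were without overlap between young EOD and young AL mice, against 4.45% of all tested genes. The averaged difference of Cxcl16 was -0.76 (SE 0.25, FDR 0.983).

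For the other tested chemokines the old EOD and old AL mice overlapped. The log2 difference in old mice was 0.33 for Ccl6 (95% confidence interval -0.32 to 0.97), -0.61 for Ccl3 (-1.74 to 0.51), -0.27 for Ccl9 (-0.999 to 0.46), 0.02 for Cxcl12 (-0.21 to 0.25) and -0.11 for Cx3cl1 (-0.26 to 0.04). As folds, these intervals ran from 0.867 to 1.19 for Cxcl12 and from 0.837 to 1.02 for Cx3cl1, but from 0.803 to 1.96 for Ccl6. Among the low genes, old EOD over old AL ratios were 0.636 for Ccl3, 0.552 for Ccl4, 0.782 for Ccl5, 0.695 for Ccl2 and 1.46 for Cxcl10, all with intervals that include 1 and exact permutation p-values of 0.257 to 0.571.

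The receptors and processing enzymes were read from lists of the rest of the system. Of 24 receptor genes 9 passed the filter, and with age averaged over diets 1 rose and 0 fell. Over all tested genes 2.3% were called in either direction. The median log2 difference was 0.04 for the receptors against -0.005 over all tested genes. The receptor that rose was Cx3cr1, the microglial receptor of Cx3cl1, by 0.23 (SE 0.062, FDR 0.073). Its level was 49.2, 51.8, 47.0 and 52.4 CPM in young AL mice, 48.8, 46.6 and 49.2 in young EOD mice, 54.2, 57.9, 56.4 and 56.7 in old AL mice and 63.9, 56.9, 63.4 and 50.6 in old EOD mice. Only the fourth old EOD mouse lay among the young values. Cxcr4, the receptor of Cxcl12, differed by -0.07 (SE 0.33), the Cxcl12 scavenger Ackr3 by 0.04 (SE 0.12) and Ccr2 by 0.17 (SE 0.51), and none of them passed the test. Ccr1, Cxcr3 and Cxcr6, the receptors of Ccl6 and Ccl9, of Cxcl10 and of Cxcl16, were too low to test.

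The 3 processing genes all passed the filter and 0 were called in any comparison. Adam10 and Adam17, proteases that release Cx3cl1 and Cxcl16 from the membrane, differed with age by 0.10 (SE 0.052) and 0.08 (SE 0.11), and Dpp4, a peptidase that trims Cxcl12 and Cxcl10, by -0.30 (SE 0.19). Of 28 other chemokine genes 6 passed the filter, and 1 rose and 0 fell with age averaged over diets, where 2.3% of all tested genes were called. The 1 that rose was the neutrophil attractant Cxcl5, by 1.92 (SE 0.53, FDR 0.080). Cxcl5 stood at 2.05, 0.367, 0 and 0.920 CPM in young AL mice, 0.308, 0 and 0.526 in young EOD mice, 2.61, 1.84, 1.14 and 0.925 in old AL mice and 2.35, 1.59, 2.85 and 1.64 in old EOD mice, so the first young AL mouse overlapped the old groups, and Cxcl5 reached the filter level in 1 young and 7 old mice. The other 5 were Cxcl14, Ccl25, Ccl27a, Ccl28 and Pf4, with log2 differences from -0.22 to 0.15, and Ccl27a is uncertain because near-identical copies of it exist. Diet called 0 genes of any of these lists.

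**Figure D5:**
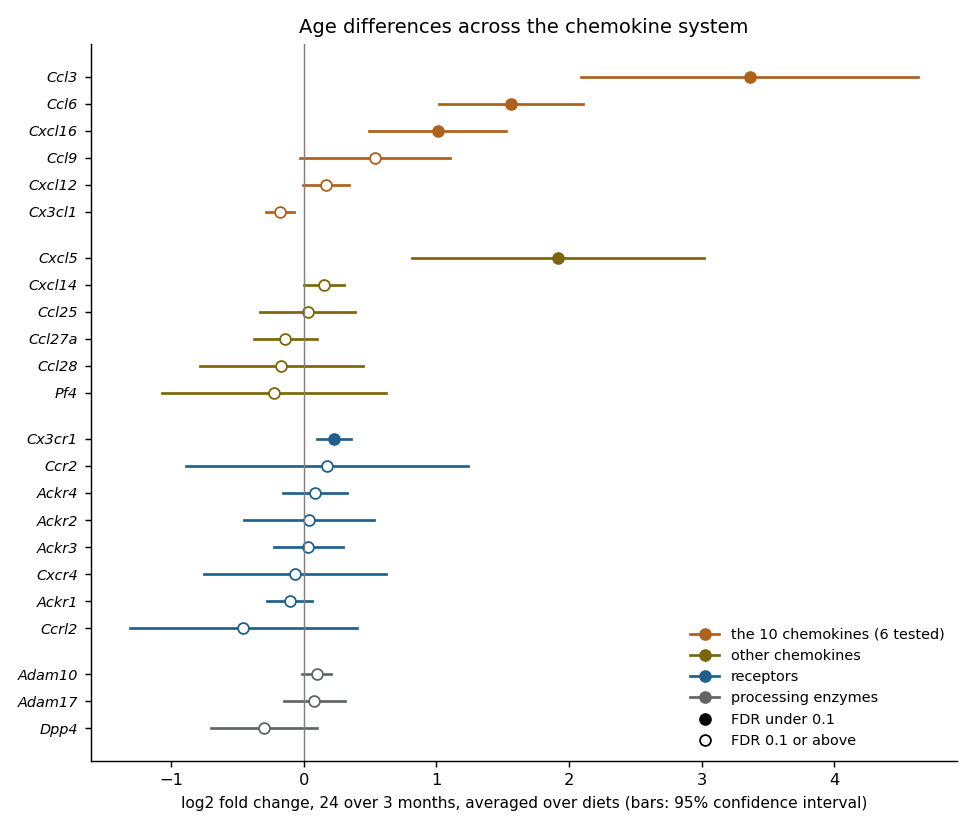
Log2 difference between 24 and 3 months averaged over diets, with 95% confidence interval, for tested chemokines, other chemokines, receptors and processing enzymes, with filled points where the FDR is under 0.1. The 5 filled points are Ccl3 (3.36), Cxcl5 (1.92), Ccl6 (1.56), Cxcl16 (1.01) and Cx3cr1 (0.23). Ccl3 passed the expression filter through old mice only.

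Markers of cell types that make or follow these chemokines were read beside them. The summed level of 12 microglial markers was 410 to 482 CPM in the young and 493 to 565 CPM in the old mice. Of these markers 4 of 12 rose with age averaged over diets and 0 fell, where 2.3% of all tested genes were called in either direction. Their median log2 difference was 0.23. Among the 4 were Csf1r, the receptor that keeps microglia alive (0.20, SE 0.053), and Cx3cr1, already given above as the receptor that rose. Border macrophage markers gave 0 calls among 5 tested and a median of -0.35. For T cells, 2 of 8 markers, Cd4 and Lck, passed the filter and 0 were called. The highest counts of Cd3d, Cd3e and Cd3g were 0, 2 and 1 in young mice and 2, 1 and 5 in old mice. For Cd8a, Cd8b1 and Trac they were 1, 0 and 4 in young mice and 4, 2 and 6 in old mice. The neutrophil marker Ly6g was at 0 in all mice, and 1 of the 7 neutrophil markers, S100a9, passed the filter, through 4 old and 0 young mice. Its log2 difference with age was 2.92 (FDR 0.073) with all mice, and it was 2.65 and not called without the third young AL mouse. Its counts ran from 1 to 49 in old AL mice and from 4 to 16 in old EOD mice. The third old AL mouse held the highest summed neutrophil level (22.7 CPM against at most 3.85 in any other mouse). The S100a9 difference without that old mouse is not given here. The part of these cell types in the chemokine differences was not tested. Leaving out the third or the fourth old AL mouse kept the age calls of Ccl6 and Cxcl16 averaged over diets.

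Restricted to genes whose mean log2 CPM reached 1, those whose levels ranked most like each increased chemokine over the 15 mice were listed by Spearman rho, as a description. For Ccl6 they included Lair1 (0.893), an inhibitory collagen receptor of leukocytes, and Gstm1 (0.846), a glutathione transferase gene. For Cxcl16 they were the lysosomal protease gene Ctsz (0.911), the G protein subunit gene Gngt2 (0.904) and the adhesion molecule gene Icam1 (0.879). For Ccl3 they were Ncf1 (0.919), a subunit of the phagocyte NADPH oxidase, Maob (0.903) and the mitochondrial tRNA gene mt-Tt (0.903). The mice share age, diet, library and depth in these rankings, and Ccl3 was at 0 in 4 of them.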

How the data were processed

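Whole-brain RNA of 15 mice was sequenced by the authors in single reads of 50 bases, trimmed, aligned to Ensembl GRCm38 with STAR and counted with featureCounts 1.5.0-p1 against the Ensembl 79 annotation (reverse-stranded, primary alignments, mapping quality of at least 5). The deposited values are raw counts per gene. Genes overlapping Cxcl10, Cxcl16, Ccl6 and Ccl2 lie on the opposite strand and were kept apart by the strand-specific count.

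Groups came from the sample labels. Tests used edgeR 4.0.16 in R 4.3.3 (filterByExpr, TMM, quasi-likelihood, Benjamini-Hochberg, FDR under 0.1), with 4 group means and 7 contrasts over 15864 genes. Levels are CPM on TMM-scaled library sizes. Exact tests and figures used Python 3.11.15 with scipy 1.17.1. Alternatives were RLE factors, looser and stricter filters, DESeq2 1.42.0, an FDR of 0.05, a replicate block, lane, a fit of the compared groups alone and omission of each mouse. Permutation tests, count ratios, lane values and overlap counts were added later. The edgeR steps were tested on simulated data.

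The 10 chemokines and all gene lists were chosen with earlier results of these data known. All 10 are named, with receptors, processing genes and other chemokines that passed the filter, up to 4 called genes of other lists and the 3 most similar genes of each called chemokine. With these depths a level of 0 counts allows up to 3 counts. Some genes that these rules would name are not reported here. Replicates are mice, and no pair of replicate libraries agreed within sampling noise.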

Additional observations from a re-analysis of the deposited data

Results flagged for a closer look

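Both of the values that stood apart from the other mice of their group came from Ccl3, among 29 groups of 4 mice examined. The rule marks about 1 in 20 groups of normally distributed values, which low counts are not. In young AL mice, the second mouse held 0.183 CPM (2 counts) while the other 3 held 0, a pattern that the rule always marks. In old EOD mice, the third mouse held 1.20 CPM (13 counts) against 0.335 to 0.481 CPM in the other 3.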

How the results depend on the processing

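Of 874 alternative values for the 6 tested chemokines, 849 kept their direction or stayed uncalled, 13 lost a call, 12 gained one and 0 called values turned direction. The increase of Ccl6 averaged over diets held in all 21 alternatives (log2 1.32 to 1.73) and that of Cxcl16 in 18 of 21 (0.90 to 1.22). Ccl3 was called in all 14 alternatives that tested it in AL mice. Where the count filter applied, it was tested only through its level in old mice, so these calls do not measure robustness. The other alternatives filtered it out. Counts of called chemokines therefore moved with the filter. With every detected gene they were 4 for age under AL and 6 averaged, both including Ccl3. Of the 6, 5 were higher in old mice and Cx3cl1 was lower. DESeq2 gave 3 and 5, again including Ccl3, and 4 of the 5 were higher, with Cx3cl1 lower. Over all genes DESeq2 called 244 (AL) and 475 (averaged) of 17903. The filter of at least 10 counts in every mouse left 3 chemokines (Ccl9, Cxcl12 and Cx3cl1) and called 0 of them with age. Over all genes that fit called 153 (AL), 40 (EOD) and 324 (averaged) of 13432. With only the AL groups fitted the count of called chemokines was 0. In EOD mice it was 0 at an FDR of 0.05, with the replicate block and with lane as a covariate. Leaving out 1 mouse gave 0 to 2 in AL mice, 0 to 1 in EOD mice and 2 to 4 averaged. Every count of 4 there included Ccl3 and the lower Cx3cl1. Genes called over the whole table numbered 444, 100, 653, 26, 27, 65 and 26 with every detected gene (age in AL, age in EOD, age averaged, diet in young, diet in old, diet averaged, interaction), 72 for age in EOD mice and 1 for diet in young mice with DESeq2, 86 for age in AL mice with only those groups, 229 for age averaged at an FDR of 0.05, and 237 for age averaged and 2 for diet in old mice with lane. Leaving out 1 mouse gave 102 to 221, 19 to 76 and 216 to 425 genes for the 3 age comparisons. Replicate numbers did not pair the mice (correlations from -0.113 to 0.113), and a replicate block left 155, 35 and 250 genes in these comparisons. For Ccl5 in AL mice and Cxcl10 over all mice, leaving out the third young AL mouse moved the exact permutation p to 0.0571 and 0.0723. Of the 9 genes that ranked as most similar, 3 stayed among the first 3 by Pearson r and 6 without that mouse. Depth limits Ccl2, Ccl4, Ccl5 and Cxcl10, whose intervals cover counting error only. The cause of these shifts was not tested, apart from the genes each filter removed.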
